A study of Homo sapiens with 6 samples.

Results

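Polyamines are small positively charged molecules that bind RNA and DNA and are needed for growth. The enzyme ODC1 makes putrescine from ornithine, and the aminopropyl groups that turn putrescine into spermidine and spermidine into spermine come from S-adenosylmethionine, which cells make from methionine. Antizymes send ODC1 protein to the proteasome, and polyamines themselves raise antizyme production by promoting a shift of reading frame on its mRNA. The 10 genes described here cover synthesis (ODC1, AMD1, SRM, SMS), breakdown (SAT1, SMOX, PAOX), 2 antizymes (OAZ1, OAZ2) and the antizyme inhibitor AZIN1. They were taken by name from the 58523 genes in the tables.

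RNA was sequenced from A375, an established human melanoma cell line kept in medium with fetal bovine serum. In 3 cultures (treated replicates 4, 5 and 6) the cells received hMGL, an engineered human enzyme that degrades methionine, for 24 h. Another 3 cultures (control replicates 1, 2 and 3) were left untreated, so no inactive protein was given to the controls. A time is listed for the treated cultures only, so whether the controls were matched in time cannot be checked here. All 6 cultures are of a single line, and the comparison asks which polyamine transcripts differ after the enzyme.

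Libraries held 50760266 to 59954677 estimated counts. SOX10 and MITF, transcription factors of the melanocyte lineage, averaged 55.9 ± 4.02 and 13.6 ± 1.11 TPM in treated cells and 67.1 ± 7.78 and 14.6 ± 1.70 TPM in control cells (SD, n = 3 each; TPM is a relative level corrected for transcript length). Of the 12 melanoma and melanocyte markers 11 were tested. Of these 4 were called higher and 5 lower, against 34.9% higher and 34.5% lower among all genes tested. TYRP1 rose 7.004-fold, PMEL 3.689-fold, DCT 1.896-fold and PAX3 1.481-fold, while SOX10 was among the lower. S100B, a calcium-binding protein used as a melanoma marker, averaged 4.28 ± 1.12 TPM in treated cells and 26.5 ± 1.47 TPM in control cells, the largest fall of the list. The part of this shift in the results on polyamine genes was not tested. The pigment genes PMEL, MLANA, TYR, TYRP1 and DCT reached at most 1.36 TPM in any library. Of 12 markers of other cell types, 11 stayed under 1 TPM in every library and CD68 made up most of their summed level, which was 25.3 to 30.2 TPM in treated cells and 20.8 to 24.3 TPM in control cells.

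After hMGL the breakdown genes SAT1 and SMOX and the synthesis genes ODC1 and AMD1 were higher, while spermine synthase SMS, antizyme OAZ2 and the antizyme inhibitor AZIN1 were lower. SRM and OAZ1 did not pass the test, and PAOX was too low to test. Thus 7 of the 9 members tested passed, 4 higher and 3 lower (edgeR quasi-likelihood test, adjusted p under 0.05). Of all 22580 genes tested 69.4% passed, 34.9% higher and 34.5% lower, so the share of members called is close to that of genes in general. The groups did not overlap, on counts scaled to library size, for 7 of the 9 members, against 73.3% of all genes tested. The median log2 fold change was 0.039 over the 9 members and -0.015 over all genes tested. Because libraries were scaled to one another, a fold change tells how a gene moved against the bulk of the transcriptome, and fewer cells, fewer expressing cells and less RNA per cell cannot be told apart.

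**Figure D1:**
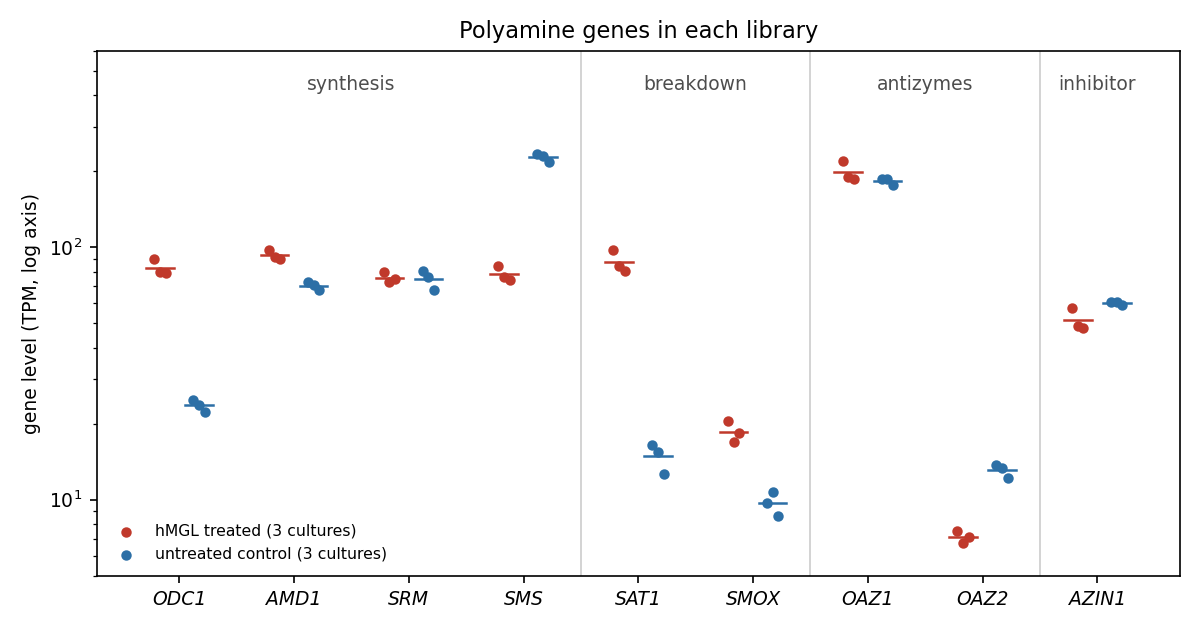
Level of 9 polyamine genes (TPM, log axis) in each of the 3 hMGL-treated cultures (red, left of each pair) and 3 untreated control cultures (blue, right), with lines at the means. SAT1 and ODC1 sit far above control and SMS far below it, while SRM and OAZ1 overlap; PAOX, at most 0.120 TPM, is not drawn.

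ODC1 is the ornithine decarboxylase, the first enzyme of polyamine synthesis (ENSG00000115758, GRCh38 chr2:10439968-10448504, minus strand). It had 89.6, 79.6 and 79.2 TPM in treated replicates 4, 5 and 6, against 24.9, 23.8 and 22.3 TPM in control replicates 1, 2 and 3. All treated libraries lay far above all control libraries. The gene rose 3.21-fold (log2 fold change 1.68 ± 0.032 SE, edgeR adjusted p = 1.22e-17), and 6.36% of the genes tested had a higher log2 fold change.

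ODC1 is a known target of the transcription factor MYC, which binds the E-box CACGTG. The stretch around one of the start sites that RefSeq gives for ODC1 is printed because it holds a pair of these motifs (GRCh38.p14, chr2:10447993-10448072, minus strand, 60 bases before to 20 after the start site, E-boxes in capitals).
ODC1 promoter: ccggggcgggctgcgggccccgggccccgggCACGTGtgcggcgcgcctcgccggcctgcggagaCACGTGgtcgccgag
The E-box reads the same on both strands, and it occurs in 7.26% of the 35116 RefSeq promoter windows, which are 300 bases long and so longer than the stretch printed. The window of the other ODC1 start site in RefSeq held none. Among the promoter windows of the other members in the table, that of SRM held 1 E-box, and those of AMD1, SMS, SAT1, OAZ1 and OAZ2 held none. Neither TGACGTCA, the cyclic AMP response element, nor TGATGCAA, a sequence of the amino acid response, was found on either strand in any of these windows. MYC itself had 27.2, 28.5 and 27.3 TPM in treated replicates 4, 5 and 6, against 4.72, 4.32 and 4.64 TPM in control replicates 1, 2 and 3, and rose 6.13-fold (edgeR adjusted p = 2.56e-05). Its part in the ODC1 level was not tested.

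All 4 listed ODC1 transcripts rose, against 17.5% called higher among all transcripts tested, and none changed its share of the gene past the test. The trace coding form ODC1-203 averaged only 15.3 estimated counts in treated cells and 0.737 in control cells (edgeR adjusted p = 0.0195). Of these calls only that of ODC1-202 was followed through the alternative settings. ODC1-202, a coding form, held 82.8% ± 1.08 of ODC1 TPM in treated cells and 84.3% ± 0.654 in control cells (SD, n = 3 each). It averaged 68.6 ± 4.02 TPM in treated cells and 19.95 ± 0.974 TPM in control cells. ODC1-201, also coding, averaged 10.7 ± 1.27 TPM in treated cells and 3.34 ± 0.552 TPM in control cells. The minor ODC1-204, listed as a processed transcript, had 3.34, 2.56 and 2.67 TPM in treated cells, against 0.263, 0.158 and 0.629 TPM in control cells. The small nucleolar RNA SNORA80B, which lies within ODC1 on the same strand, had 13.7, 17.97 and 8.15 TPM in treated cells, against 1.01, 1.78 and 1.53 TPM in control cells. It is counted as its own gene. How RNA was selected for the libraries and whether strand was kept are not given in the sources used here, which limits what can be read from small nucleolar, intron-retaining and processed transcripts.

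AMD1 makes decarboxylated S-adenosylmethionine, the donor of aminopropyl groups (ENSG00000123505, chr6:110874770-110895713, plus strand). It had 97.2, 91.7 and 89.6 TPM in treated replicates 4, 5 and 6, against 72.7, 70.7 and 67.5 TPM in control replicates 1, 2 and 3. The groups did not overlap, and the distance between them was far smaller than for ODC1. AMD1 rose 1.29-fold (log2 fold change 0.36 ± 0.032 SE, edgeR adjusted p = 1.55e-08).

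The mRNA of AMD1 carries a short upstream reading frame, encoding the peptide MAGDIS, through which polyamines are known to limit its translation. It is printed because it decides whether a transcript can be held back in this way (chr6:110874796-110874816, plus strand, start and stop codons in capitals).
AMD1 upstream frame: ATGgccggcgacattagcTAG
The frame was present in 4 of the 8 listed AMD1 transcripts by their GENCODE 29 structure. These 4 held 97.2%, 97.6% and 96.2% of AMD1 TPM in treated replicates 4, 5 and 6, against 95.0%, 94.4% and 97.4% in control replicates 1, 2 and 3. The ranges of the groups overlap. For AMD1-203 and AMD1-204, which are among the 4, the listed lengths differ from GENCODE 29, so the frame may not hold for the versions used and the shares rest on that structure.

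The split of AMD1 between its long coding forms differed between libraries of the same group. AMD1-203 had 5.80, 30.8 and 31.3 TPM in treated replicates 4, 5 and 6, against 30.1, 20.7 and 20.6 TPM in control replicates 1, 2 and 3. AMD1-204 had 43.7, 11.6 and 12.9 TPM in treated cells, against 1.16, 9.84 and 7.97 TPM in control cells. Treated replicate 4 and control replicate 1 thus stood apart in opposite ways, and neither transcript passed the test (edgeR adjusted p = 0.940 for AMD1-203 and 0.198 for AMD1-204). The tables list these transcripts at 3419 and 3423 bases, which differ from their lengths of 3059 and 3438 bases in GENCODE 29, so the tables were made from another version of them. Their sum was steadier, at 49.5, 42.4 and 44.2 TPM in treated cells, against 31.3, 30.5 and 28.6 TPM in control cells. These sums did not overlap.

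The shorter coding form AMD1-202 averaged 44.3 ± 2.32 TPM in treated cells and 37.0 ± 0.772 TPM in control cells (SD, n = 3 each), and did not pass (edgeR adjusted p = 0.0840). It passed under 4 of 13 alternative settings. The noncoding forms of AMD1 were minor. AMD1-206, marked for nonsense-mediated decay, a pathway that degrades mRNAs with early stop codons, had 1.42, 1.23 and 2.55 TPM in treated cells, against 2.06, 2.03 and 0.375 TPM in control cells. The other decay form AMD1-205 and the retained-intron forms AMD1-207 and AMD1-208 averaged 0.405, 0.569 and 0.420 TPM in treated cells and 0.130, 0.717 and 0.574 TPM in control cells. None of the 4 noncoding forms passed the test. The one AMD1 transcript called was AMD1-201, a trace coding form that averaged 0.0638 ± 0.0293 TPM in treated cells and 0.326 ± 0.141 TPM in control cells (SD, n = 3 each) and fell while the gene rose (log2 fold change -2.39 ± 0.439 SE, edgeR adjusted p = 0.00889). Coding transcripts held 96.6% ± 0.512 of AMD1 TPM in treated cells and 95.9% ± 1.35 in control cells, a difference of 0.730 percentage points (exact two-sided permutation p = 0.4, with 0.1 the smallest that 3 against 3 allows).

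**Figure D2:**
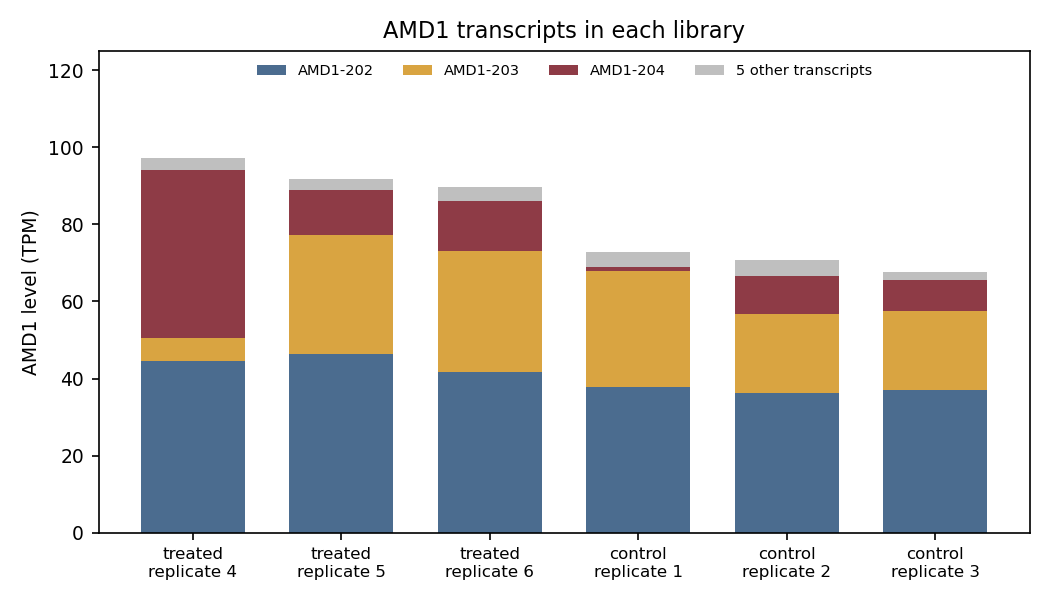
AMD1 level (TPM, bars from 0) in each library, split by transcript, with the 3 treated libraries on the left and the 3 control libraries on the right. The total is higher in all treated libraries, while the split between AMD1-203 and AMD1-204 is different in treated replicate 4 (5.80 and 43.7 TPM) and control replicate 1 (30.1 and 1.16 TPM) from the other libraries of their groups.

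SRM, spermidine synthase, adds the first aminopropyl group to putrescine (ENSG00000116649, chr1:11054584-11060024, minus strand). It had 79.9, 72.5 and 74.7 TPM in treated replicates 4, 5 and 6, against 80.7, 76.0 and 67.5 TPM in control replicates 1, 2 and 3. The groups overlapped, and the log2 fold change of -0.068 ± 0.037 (SE) did not pass (edgeR adjusted p = 0.110). It passed with a stricter filter (-0.075, adjusted p = 0.0487) and without control replicate 2 (-0.094, adjusted p = 0.0352), and its sign turned under 3 settings. The coding form SRM-201 and SRM-204, listed as retaining an intron, held 50.9% and 43.6% of SRM TPM in treated cells and 51.9% and 43.8% in control cells. Neither form passed the test, and 420 of the 545 bases of SRM-204 lie in exons of SRM-201. In estimated counts, which are not corrected for length, SRM-201 and SRM-204 averaged 4458 and 1379 in treated cells, and 4936 and 1503 in control cells. SRM-202, a minor form marked for nonsense-mediated decay, averaged 0.342 ± 0.0108 TPM in treated cells and 0.129 ± 0.0185 TPM in control cells (SD, n = 3 each), and rose (log2 fold change 1.38 ± 0.328 SE, edgeR adjusted p = 0.0228). The minor coding form SRM-205 rose as well, with 0.843 ± 0.0448 TPM in treated cells and 0.472 ± 0.0374 TPM in control cells (log2 fold change 0.79 ± 0.230 SE, edgeR adjusted p = 0.0452). SRM-202 averaged only 21.4 estimated counts in treated cells and 8.87 in control cells. Neither of these 2 calls was followed through the alternative settings.

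SMS, spermine synthase, adds the second aminopropyl group and so makes spermine (ENSG00000102172, chrX:21940573-21994835, plus strand). It had 84.2, 76.2 and 73.8 TPM in treated replicates 4, 5 and 6, against 233, 229.9 and 217 TPM in control replicates 1, 2 and 3. Every treated library lay well below every control library. SMS fell 3.11-fold (log2 fold change -1.64 ± 0.030 SE, edgeR adjusted p = 7.90e-18), and 4.89% of the genes tested had a lower log2 fold change. Nearly all of it was SMS-202, a coding form with 98.4% of SMS TPM in treated cells and 99.1% in control cells. The trace coding form SMS-201 averaged 0.245 TPM in treated cells and 0.848 TPM in control cells, and fell (edgeR adjusted p = 0.0390). Its call was not followed through the alternative settings. The ratio of SMS to SRM TPM was 1.05, 1.05 and 0.988 in treated cells, against 2.89, 3.03 and 3.22 in control cells. In treated cells the summed TPM of the 2 genes was thus nearly equal, with the intron-retaining SRM-204 counted in SRM. The main coding forms SRM-201 and SMS-202 averaged 38.6 and 76.8 TPM in treated cells, and 38.8 and 225 TPM in control cells.

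SAT1 is the spermidine/spermine acetyltransferase, which tags polyamines for export or oxidation and is known to rise when polyamines are abundant and in stressed cells (ENSG00000130066, chrX:23783173-23786226, plus strand). It had 97.5, 83.9 and 80.3 TPM in treated replicates 4, 5 and 6, against 16.4, 15.5 and 12.7 TPM in control replicates 1, 2 and 3. The lowest treated library lay far above the highest control library. SAT1 rose 5.95-fold (log2 fold change 2.57 ± 0.048 SE, edgeR adjusted p = 9.33e-18), the largest fold change of the 9 members tested, and 2.45% of the genes tested had a higher log2 fold change.

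Most of this difference lay in a noncoding form. SAT1 pre-mRNA can be spliced with an extra exon, known as exon X, that carries early stop codons, and mRNAs with it are known to be degraded by nonsense-mediated decay. In GENCODE 29 it is found in SAT1-209, listed as a processed transcript, and not in the coding form SAT1-204. Its 110 bases also lie within the longer last exon of SAT1-202, a coding form that ends upstream of the later exons. The exon is printed with its stop codons in the frame of the SAT1 start codon in capitals (GRCh38 chrX:23784294-23784403, plus strand, 110 bases).
SAT1 exon X: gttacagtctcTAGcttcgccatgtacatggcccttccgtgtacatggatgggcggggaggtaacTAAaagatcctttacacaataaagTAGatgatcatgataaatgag
With the exon, the reading frame ends after 71 codons, against 171 in SAT1-204, and the first stop lies 239 bases before the last exon junction. The exon holds 3 stop codons in this frame. A further form, SAT1-203, lacks an 84-base exon whose length is a multiple of 3, so its reading frame is kept (chrX:23783800-23783883, plus strand, shown as the part of the coding sequence that this form leaves out).
SAT1 skipped exon: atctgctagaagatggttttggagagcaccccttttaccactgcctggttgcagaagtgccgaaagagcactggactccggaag

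SAT1-209 had 55.7, 48.8 and 48.3 TPM in treated replicates 4, 5 and 6, against 2.36, 2.05 and 1.85 TPM in control replicates 1, 2 and 3. The groups were far apart and the libraries within each group close together. It rose 23.6-fold (log2 fold change 4.56 ± 0.073 SE, edgeR adjusted p = 1.73e-06), and 67.5% of the difference in SAT1 TPM between the groups lay in this form. It held 58.5% ± 1.504 of SAT1 TPM in treated cells and 14.1% ± 0.723 in control cells (SD, n = 3 each). The test of transcript usage, which sets each transcript against the other transcripts of its gene, called it higher (log2 1.95, edgeR adjusted p = 0.00193), and so did all 9 alternative settings, with a value of 3.65 in limma's usage test. Among all transcripts in that test 3.28% passed, 2.1% higher and 1.18% lower.

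The coding form SAT1-204 had 9.48, 7.99 and 7.65 TPM in treated cells, against 3.798, 3.88 and 2.29 TPM in control cells. It rose too (log2 fold change 1.299 ± 0.179 SE, edgeR adjusted p = 0.00293). The ratio of SAT1-209 to SAT1-204 TPM was 5.88, 6.11 and 6.31 in treated cells, against 0.621, 0.529 and 0.807 in control cells, so SAT1-209 outnumbered SAT1-204 in all treated libraries and in no control library. The shorter coding form SAT1-202 averaged 7.97 ± 1.05 TPM in treated cells and 4.10 ± 0.547 TPM in control cells (SD, n = 3 each), and rose (log2 fold change 0.93 ± 0.115 SE, edgeR adjusted p = 0.00187).

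SAT1-203 had 14.3, 13.8 and 11.4 TPM in treated replicates 4, 5 and 6, against 0, 0 and 1.04 TPM in control replicates 1, 2 and 3. No control library came near the treated ones, but the transcript test missed the threshold (edgeR adjusted p = 0.0536). It passed under 4 of 13 alternatives, namely the stricter filter (adjusted p = 0.0385), both limma fits (0.000287 and 0.00444) and the fit without control replicate 3 (0.000340), the only control library with a value above 0. Its usage was called higher (log2 2.47, edgeR adjusted p = 0.0364; log2 9.45 without control replicate 3), and this call was lost when any of the other 5 libraries was left out, with adjusted p between 0.148 and 0.191. The noncoding forms SAT1-207 and SAT1-205 did not pass. SAT1-207 had 6.59, 4.51 and 4.27 TPM in treated cells, against 4.52, 3.79 and 3.25 TPM in control cells, and SAT1-205 averaged 0.576 TPM in treated cells and 0.392 TPM in control cells.

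Coding transcripts held 34.9%, 35.9% and 34.1% of SAT1 TPM in treated replicates 4, 5 and 6, against 51.6%, 59.7% and 58.0% in control replicates 1, 2 and 3. The groups did not overlap, and the share was 21.5 percentage points lower on average in treated cells (exact two-sided permutation p = 0.1, the smallest that 3 against 3 allows). SAT1-209 shares 1025 of its 1135 bases with SAT1-204, and its other 110 bases with SAT1-202, so the junctions of exon X set it apart and the rest of its level is the estimate of the quantifier. The error of that division is not in the tables.

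**Figure D3:**
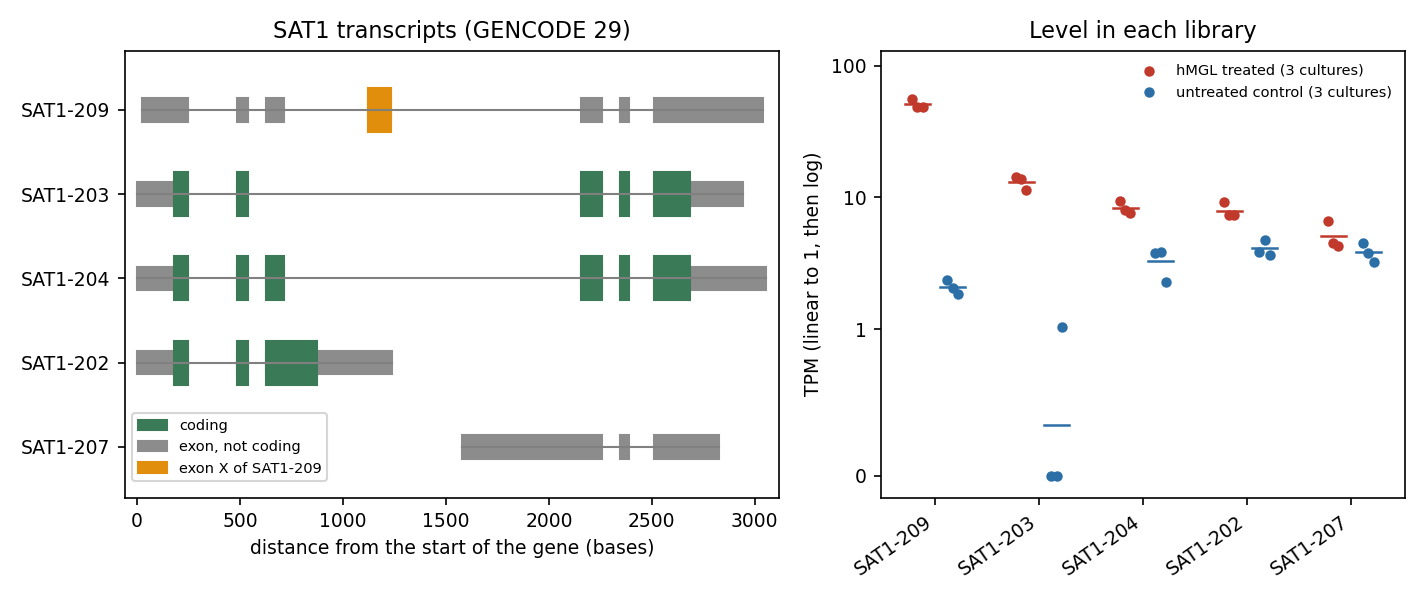
Left, exons of 5 SAT1 transcripts in GENCODE 29 by distance from the start of the gene in bases, with coding parts in green and exon X in orange. Right, TPM of the same transcripts in each library (linear to 1, then log), treated in red on the left of each pair, control in blue, and lines at the means; SAT1-209 lies at 48.3 to 55.7 TPM in treated and 1.85 to 2.36 TPM in control libraries.

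SMOX, spermine oxidase, turns spermine back into spermidine and releases hydrogen peroxide (ENSG00000088826, chr20:4120980-4187747, plus strand). It had 20.5, 16.9 and 18.3 TPM in treated replicates 4, 5 and 6, against 9.67, 10.8 and 8.60 TPM in control replicates 1, 2 and 3. The groups did not overlap. SMOX rose 1.85-fold (log2 fold change 0.89 ± 0.040 SE, edgeR adjusted p = 1.01e-12). Its coding forms SMOX-202 and SMOX-203 and the noncoding SMOX-208 averaged 7.03, 3.45 and 4.84 TPM in treated cells and 3.79, 1.37 and 2.63 TPM in control cells. All 3 rose and none changed its share past the test. The minor coding form SMOX-205 averaged 0.916 TPM in treated cells and 0.534 TPM in control cells and did not pass, and the noncoding SMOX-209, listed at 0 in all treated libraries, had 0.788, 0.580 and 0.151 TPM in control cells and was too low to test. The call of SMOX-202 was lost without treated replicate 4, treated replicate 5 or control replicate 1 (edgeR adjusted p = 0.0595, 0.0590 and 0.0695). That of SMOX-203 (edgeR adjusted p = 0.0301) was not followed through the alternative settings.

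PAOX, the oxidase that acts on the acetylated polyamines SAT1 makes, was barely detected (ENSG00000148832, chr10:133379234-133391694, plus strand). It had 0.0142, 0.0731 and 0 TPM in treated cells, against 0.120, 0.00934 and 0.00678 TPM in control cells, from sums of 4.17 and 7.57 estimated counts over the 3 treated and 3 control libraries. A difference was not detectable at this depth.

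The antizymes are made only when the ribosome shifts to another frame at a stop codon within the reading frame, a step that polyamines are known to favour. The sites of OAZ1 and OAZ2 are printed for comparison, with the last sense codon and the stop codon of the first frame in capitals (GRCh38 chr19:2271428-2271460, plus strand, and chr15:64691498-64691530, minus strand).
OAZ1 frameshift site: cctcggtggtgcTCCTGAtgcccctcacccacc
OAZ2 frameshift site: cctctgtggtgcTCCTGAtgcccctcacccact
The sites are identical at 31 of 33 bases. In OAZ1 the first frame ends after 68 codons, and the shifted frame gives 228. In OAZ2 these lengths are 32 and 189 codons. A shift of frame cannot be seen in RNA levels.

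OAZ1, the more abundant antizyme (ENSG00000104904, chr19:2269509-2273490, plus strand), had 219.6, 190.4 and 186.7 TPM in treated replicates 4, 5 and 6, against 187, 185.5 and 176.6 TPM in control replicates 1, 2 and 3. The groups overlapped, and OAZ1 did not pass (log2 fold change 0.039 ± 0.033 SE, edgeR adjusted p = 0.316). It passed as higher with library totals in place of TMM scaling (0.12, adjusted p = 0.00139), among protein-coding genes alone (0.070, adjusted p = 0.0354) and without control replicate 3 (0.079, adjusted p = 0.0445). OAZ1-208, listed as retaining an intron, held 50.8% of OAZ1 TPM in treated cells and 49.7% in control cells, and the coding OAZ1-211 held 30.8% in treated cells and 30.7% in control cells. Neither passed, and 702 of the 726 bases of OAZ1-208 lie in exons of OAZ1-211. In estimated counts, which are not corrected for length, OAZ1-208 and OAZ1-211 averaged 6056 and 6082 in treated cells, and 6022 and 6112 in control cells. OAZ1-207, marked for nonsense-mediated decay, and OAZ1-209, listed as retaining an intron, averaged 18.1 and 12.6 TPM in treated cells and 19.1 and 12.3 TPM in control cells, and did not pass. Of the 9 OAZ1 transcripts tested 2 were called higher, against 17.5% of all transcripts tested. These were the minor intron-retaining OAZ1-206 and OAZ1-203 (edgeR adjusted p = 0.0219 and 0.0413). They averaged 0.842 and 0.411 TPM in treated cells and 0.366 and 0.261 TPM in control cells. Neither call was followed through the alternative settings.

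OAZ2, the second antizyme (ENSG00000180304, chr15:64687573-64703281, minus strand), had 7.49, 6.73 and 7.10 TPM in treated replicates 4, 5 and 6, against 13.7, 13.3 and 12.2 TPM in control replicates 1, 2 and 3. All treated libraries lay below all control libraries. OAZ2 fell 1.83-fold (log2 fold change -0.87 ± 0.045 SE, edgeR adjusted p = 7.21e-12). Its coding form OAZ2-201 averaged 2.89 ± 0.601 TPM in treated cells and 6.04 ± 0.805 TPM in control cells (SD, n = 3 each), and fell (log2 fold change -1.13 ± 0.139 SE, edgeR adjusted p = 0.00184). The noncoding OAZ2-209 fell as well, with 0.747 ± 0.0447 TPM in treated cells and 1.65 ± 0.151 TPM in control cells (edgeR adjusted p = 0.00588). OAZ2-208, a processed transcript with 25.0% of OAZ2 TPM in treated cells and 23.5% in control cells, had 2.37, 1.29 and 1.72 TPM in treated cells, against 3.94, 1.65 and 3.58 TPM in control cells, and did not pass. The minor noncoding OAZ2-202 and OAZ2-204 averaged 0.468 and 0.502 TPM in treated cells and 0.522 and 0.725 TPM in control cells, and did not pass either.

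AZIN1 resembles ODC1 but has no enzyme activity, and it frees ODC1 by binding antizyme in its place (ENSG00000155096, chr8:102826357-102893864, minus strand). It had 57.4, 48.9 and 47.7 TPM in treated replicates 4, 5 and 6, against 60.8, 60.9 and 59.2 TPM in control replicates 1, 2 and 3. The groups did not overlap, though treated replicate 4 lay near the controls in TPM. It did not on counts scaled to library size, which the test uses. These were 164.4, 166.8 and 168.3 in treated replicates 4, 5 and 6, against 204.6, 207.3 and 221.6 in control replicates 1, 2 and 3. AZIN1 fell 1.27-fold (log2 fold change -0.34 ± 0.033 SE, edgeR adjusted p = 4.00e-08). The main coding form AZIN1-201 averaged 34.3 ± 2.45 TPM in treated cells and 42.2 ± 1.53 TPM in control cells (SD, n = 3 each), and fell. The coding form AZIN1-202 averaged 13.8 ± 0.396 TPM in treated cells and 14.2 ± 0.835 TPM in control cells, and did not pass (edgeR adjusted p = 0.383). The minor AZIN1-210, listed as retaining an intron, averaged 0.687 TPM in treated cells and 1.72 TPM in control cells. It fell (log2 fold change -1.39 ± 0.256 SE, edgeR adjusted p = 0.00903) and was not followed through the alternative settings.

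Summed by role, the 4 synthesis genes had 351, 320.0 and 317 TPM in treated replicates 4, 5 and 6, against 411, 400.4 and 374 TPM in control replicates 1, 2 and 3. The sum was lower in all treated libraries, with SMS lower and ODC1 and AMD1 higher. The breakdown genes summed to 118, 101 and 98.6 TPM in treated cells, against 26.2, 26.3 and 21.3 TPM in control cells. For the antizymes the sums were 227, 197 and 194 TPM in treated cells and 201, 199 and 189 TPM in control cells, and overlapped. The ratio of ODC1 to the summed antizymes was 0.395, 0.404 and 0.409 in treated cells, against 0.124, 0.120 and 0.118 in control cells. These sums and ratios describe RNA of all listed transcripts, coding or not, and were not tested. In the breakdown sum, the noncoding SAT1-209 averaged 50.9 TPM in treated cells and 2.09 TPM in control cells. In the antizyme sum, the intron-retaining OAZ1-208 held 50.8% of OAZ1 TPM in treated cells and 49.7% in control cells.

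The order of the members by level differed between the groups. In treated cells OAZ1 led at a mean of 199 TPM, followed by AMD1, SAT1, ODC1, SMS and SRM, whose means of 92.8 to 75.7 TPM overlapped from each gene to the next. Below them came AZIN1, SMOX, OAZ2 and PAOX, each apart from the next. In control cells SMS led at 227 TPM, ahead of OAZ1 at 183 TPM. SRM and AMD1 overlapped, AZIN1 and ODC1 followed, SAT1 and OAZ2 overlapped at means of 14.8 and 13.1 TPM, and SMOX and PAOX came last.

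Over all members, 80 transcripts were listed and 58 tested, of which 14 rose, 7 fell and 37 did not pass. Among all transcripts tested 32.7% passed, 17.5% higher and 15.2% lower. The 14 dropped to between 7 and 9 when any single library was left out. In the usage test the members' only calls were SAT1-209 and SAT1-203, both higher.

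Other genes of the pathway were counted in lists, each to be read against the 34.9% higher and 34.5% lower (69.4% in all) among all genes tested. In the supply of ornithine and arginine, 0 of 6 tested genes rose and 5 fell, against those 34.9% and 34.5%, among them the mitochondrial ornithine carrier SLC25A15 and the ornithine aminotransferase OAT. SLC25A15 averaged 7.22 ± 0.218 TPM in treated cells and 10.4 ± 0.593 TPM in control cells, and OAT averaged 61.0 ± 4.85 TPM in treated cells and 76.0 ± 4.45 TPM in control cells (SD, n = 3 each). The list's median log2 fold change was -0.52. The list also holds AZIN2, by name an antizyme inhibitor like the member AZIN1, which is among the 5 that fell. AZIN2 averaged 0.766 ± 0.152 TPM in treated cells and 1.16 ± 0.0457 TPM in control cells. It fell 1.89-fold (edgeR adjusted p = 8.81e-07) and was not followed through the alternative settings. AGMAT, the agmatinase, averaged 0.122 TPM in both groups and did not pass.

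Of 3 genes listed as other antizyme and acetyltransferase paralogs, OAZ3 and SAT2 rose and SATL1 did not pass. AZIN2, counted above with ornithine and arginine supply, is not among these 3 and fell. OAZ3, an antizyme known from the testis, had 4.28, 3.82 and 3.83 TPM in treated replicates 4, 5 and 6, against 0.475, 0.489 and 0.295 TPM in control replicates 1, 2 and 3. It rose 7.82-fold (log2 fold change 2.97 ± 0.130 SE, edgeR adjusted p = 7.13e-13), but it overlaps other genes, and how reads were divided between them was not tested. SAT2, which despite its name mainly acetylates thialysine, averaged 26.8 ± 1.76 TPM in treated cells and 11.9 ± 0.422 TPM in control cells, a 2.11-fold rise.

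The hypusine pathway uses spermidine to modify the translation factor eIF5A, and 2 of its 5 tested genes rose and 2 fell, a share near the 69.4% called among all genes. DOHH, the hydroxylase of the last step, rose 1.94-fold, with 13.9 ± 1.26 TPM in treated cells and 6.71 ± 0.417 TPM in control cells (SD, n = 3 each). EIF5A2, a paralog of the factor, rose 1.57-fold (log2 fold change 0.65, or 0.30 with an offset for effective length), and EIF5A, the main form of the factor, fell 1.27-fold, with 244 ± 14.6 TPM in treated cells and 291 ± 22.6 TPM in control cells. DHPS, the first enzyme, was called lower (log2 fold change -0.11, edgeR adjusted p = 0.0207), a call that only 5 of 15 alternatives kept. The list's median was -0.11.

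Of 6 tested transporters linked to polyamines, 2 rose and 4 fell, against 34.9% higher and 34.5% lower among all genes tested. SLC3A2, the heavy chain of amino acid exchangers that has also been linked to polyamine export, had 649, 568 and 536 TPM in treated replicates 4, 5 and 6, against 118, 123 and 108 TPM in control replicates 1, 2 and 3, and rose 4.76-fold. ATP13A3, a polyamine pump, rose 1.21-fold. The lysosomal polyamine exporter ATP13A2 fell 1.62-fold, with 14.99 ± 1.501 TPM in treated cells and 22.7 ± 1.71 TPM in control cells (SD, n = 3 each), and SLC47A1, a carrier of organic cations, fell 2.67-fold (log2 fold change -1.42, or -0.63 with limma on log2(TPM + 1)). The list's median was -0.46.

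Methylthioadenosine is the by-product of both aminopropyl transfers and is recycled to methionine. Of the 5 genes of this salvage path, 4 fell and ENOPH1 did not pass, against 34.5% lower among all genes tested, with a list median of -0.81. MTAP, its first enzyme, had 70.9, 63.9 and 59.0 TPM in treated replicates 4, 5 and 6, against 109, 106 and 95.6 TPM in control replicates 1, 2 and 3, and fell 1.68-fold. ADI1, its last dioxygenase, fell 1.88-fold. Among 5 regulators of ODC1, SAT1 and AMD1 expression, MYC and NFE2L2 were called higher, PMF1 and EIF4E lower, and MAX did not pass, a share near the 69.4% called among all genes. PMF1, a known partner of NFE2L2 in SAT1 transcription, fell 1.72-fold, with 26.4 ± 2.38 TPM in treated cells and 41.2 ± 2.59 TPM in control cells. NFE2L2 was near the threshold (log2 fold change 0.091, edgeR adjusted p = 0.0391), and its call was lost in 5 of 15 alternatives. The call of EIF4E (log2 fold change -0.16, edgeR adjusted p = 0.000434) was lost with library totals (-0.081, adjusted p = 0.0518) and in both limma fits.

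**Figure D4:**
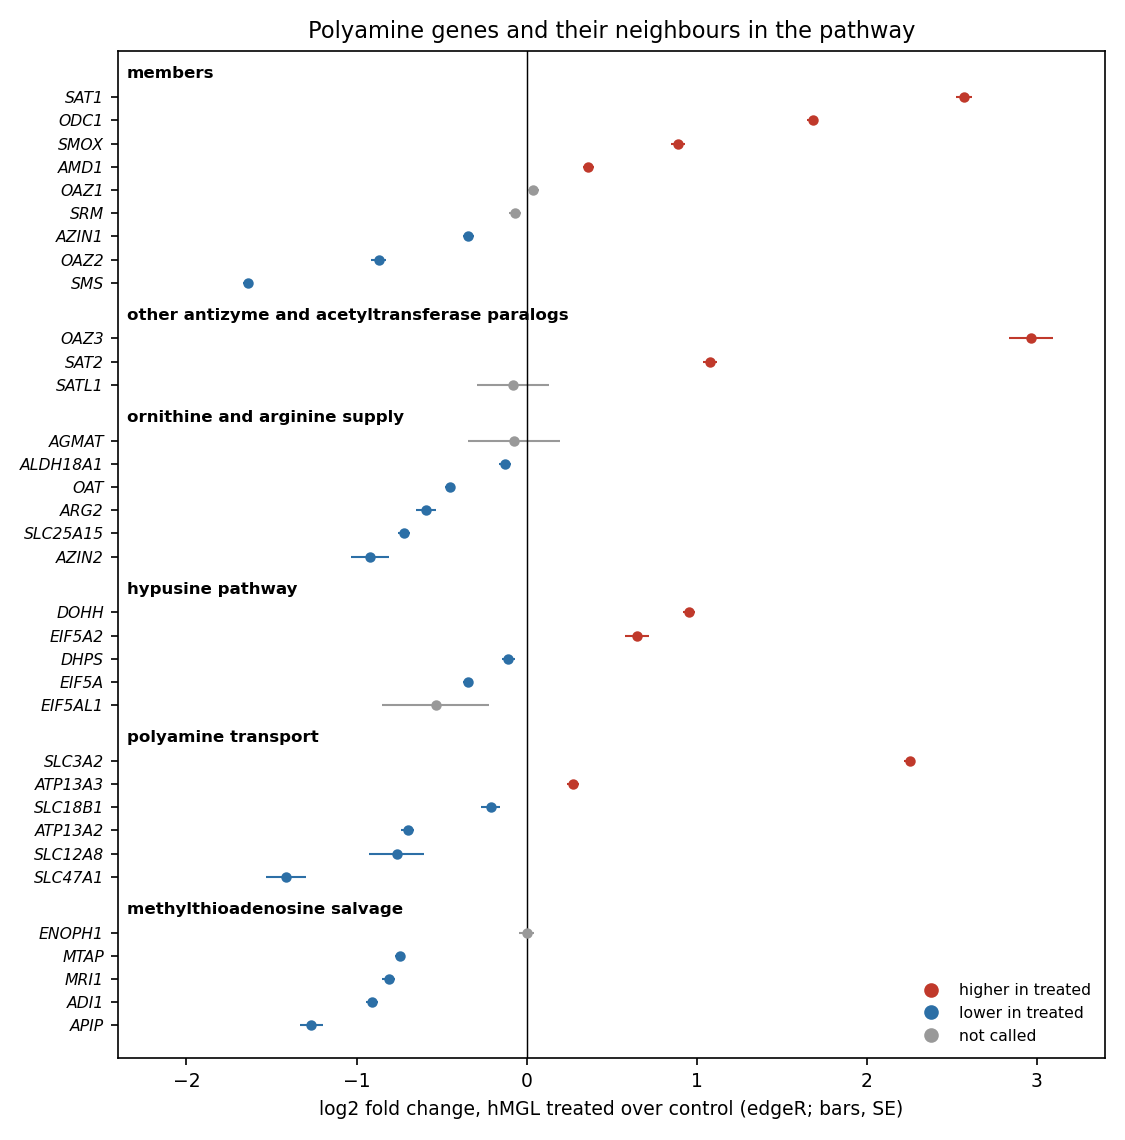
Log2 fold change of hMGL-treated over control cells with its SE (edgeR, n = 3 each) for the polyamine genes (members) and 5 lists of related genes, red for higher, blue for lower and grey for not called. SAT1, ODC1, OAZ3 and SLC3A2 lie far to the right and SMS and SLC47A1 far to the left, while no tested gene of ornithine and arginine supply or of methylthioadenosine salvage was called higher.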

How the data were processed

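RNA was sequenced from 3 treated and 3 control cultures of A375. The deposited tables hold, per the file headers, estimated counts (expected counts, not scaled between libraries), TPM (scaled by effective length) and lengths per transcript. Tools listed in the submitters' processing notes are kallisto 0.45.0 and DESeq2 1.30.0, with no role given. The genome build and transcript release are not given in the sources used here.

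Of 244939 transcripts, 203436 were matched by identifier to GENCODE 29 (GRCh38), and their estimated counts and TPM were summed to genes. The remaining 41503 (4.86% to 5.13% of a library's counts) were not used. File lengths equalled GENCODE 29 for 71 of the members' 80 transcripts and differed for 9. Sums were rounded, filtered (filterByExpr, minimum count 10, total 15), scaled by TMM and tested with edgeR 4.0.16 (robust quasi-likelihood F test, two-sided) in R 4.3.3. Calls use Benjamini-Hochberg adjusted p under 0.05 across every gene in the fit. Transcripts were tested alike (83015), and usage with diffSpliceDGE (73934 transcripts of 12738 genes). Log2 fold changes are treated over control, on TMM-scaled counts, and levels are the authors' TPM. The common biological coefficient of variation was 0.074. Alternatives used limma 3.58.1 on log2(TPM + 1) and log2(TPM + 0.1) of the deposited TPM, DESeq2 1.42.0, other scalings and filters, and each library left out. The fits were also run on simulated counts with few changed features and a fixed coefficient of variation of 0.074 for genes and transcripts alike. Those settings differ from these data, so that run does not measure the error of the calls here.

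The labels call the cultures independent. Replicates differed by more than counting noise. Whether libraries were made in batches is not given in the sources used here. Members, gene lists and tests were chosen with earlier results of these data known. Text names all members and their transcripts with at least 5% of the gene's TPM in either group. It also names tested noncoding SAT1 and AMD1 forms, and up to 2 genes each way per list by adjusted p. Minor called transcripts of ODC1, AMD1, SRM, SMS, OAZ1 and AZIN1 were added after their values were seen. So were AGMAT, AZIN2 and the markers called higher. Pseudogenes named after members reached 0.418 TPM at most, and overlapping genes other than SNORA80B 1.36 TPM. Promoter sequences are from RefSeq (GRCh38.p14), other sequences from GENCODE 29 transcripts.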

Additional observations from a re-analysis of the deposited data

How the results depend on the processing

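At the gene level 15 alternatives were run, and the calls of ODC1, AMD1, SMS, SAT1, SMOX, OAZ2 and AZIN1 and their directions held in all of them. Their log2 fold changes ranged from 1.67 to 1.80, 0.30 to 0.44, -1.66 to -1.53, 2.45 to 2.65, 0.84 to 0.97, -0.98 to -0.79 and -0.36 to -0.23. SRM, not called, turned to 0.0077 with library totals and to 0.022 in both limma fits. DHPS turned to 0.016 in both limma fits and NFE2L2 to -0.058 with an offset for effective length, neither called. Values of called list genes that moved by over 1.5 times were 1.81 for OAZ3, -0.63 for SLC47A1, 0.36 for EIF5A2 and -0.47 for SLC25A15 with limma on log2(TPM + 1), 0.39 for EIF5A2 with limma on log2(TPM + 0.1) and 0.30 for EIF5A2 with the length offset, beside DHPS, NFE2L2 and EIF4E, whose calls were lost under some settings.

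For transcripts, 13 alternatives were run. The members' 14 higher calls became 7 to 9 with a library left out, and the 7 lower calls became 4 with the stricter filter (minimum count 50). SRM-204, not called, turned to 0.014 with library totals and 0.013 in both limma fits. With a library left out, SRM-204 ranged from -0.072 to 0.029, AMD1-203 from -0.41 to 0.40, SAT1-205 from -0.039 to 1.64 and AMD1-206 from -0.25 to 0.51, none called and each turning sign.

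In the usage test the members' 2 higher calls became 1 when any single library other than control replicate 3 was left out. The 0 lower calls became 1 without control replicate 3. limma diffSplice called 6743 transcripts higher and 5834 lower, against 1550 and 873, with 7 and 5 among the members. There AMD1-202 turned to 0.022 and AMD1-206 to 0.24. With a library left out AMD1-206 ranged from -0.66 to 0.13. The cause of these shifts was not tested. No paired analysis was possible because the groups share no replicate numbers. Estimated counts carry an error of sharing reads between transcripts that these tables do not give, so transcript p values cover the spread between libraries only.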
